A study of Mus musculus with 2 samples.

Results

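The ends of the 19 mouse autosomes were examined for CpG methylation in XX and XO embryonic stem cells. The distal end of a chromosome was the stretch within 3 Mb of its last CpG in the deposited table, and the centromere-near end the stretch within 3 Mb of its first CpG, which gave 38 ends. The distal ends held 58684 and the centromere-near ends 42233 of the listed CpG cytosines, together 100917 of 1782730 in the whole series. The other 1655179 autosomal cytosines, in neither end, are called the rest. Cells of the Xmas mESC line, female and of C57/Bl6 strain, carry fluorescent reporters on the X chromosomes and were grown for 7 passages per the labels, whereas the methods of the study give another number. FACS on the reporters gave cells with both X chromosomes (XX) and cells that had lost an X chromosome in culture (XO). Reduced representation bisulfite sequencing (RRBS), which samples mainly CpG-rich fragments and scores a cytosine by the percentage of reads in which bisulfite left it unconverted, that is, methylated, was run on 1 library of each karyotype. No difference therefore has a replicate error, no test was made, and chromosomes and CpGs of a library are not replicates. The culture method, strain and line were shared by both groups, and the number of cultures pooled in a library and the X chromosome lost are not given in the sources used here.

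All mouse chromosomes of this set are telocentric, so the centromere lies at the very start of the chromosome, next to blocks of satellite DNA, and the telomere of the short arm lies just beyond it. The distal end runs to the other telomere, which is a long array of a short G-rich repeat. The assembled genome leaves out most of both arrays, so what can be read are the adjoining unique and moderately repeated sequences. DNA methylation in mammals is found mainly at CpG, is high over repeats and gene-poor DNA and low in CpG islands at gene starts, and is known to be lower in female than in male embryonic stem cells.

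The sequence of the ends was first compared with their names. In the reference (GRCm38), 3 copies in a row of TTAGGG, the telomere repeat, or of CCCTAA on the other strand, were found at 49 places in or beyond the distal ends, taking matches within 1 kb of each other as 1 place. All 19 distal ends held such a place, against 7 of 19 centromere-near ends and 30.6% of 754 interior stretches of 3 Mb. On 18 chromosomes a place lay within 1 kb of the last assembled base, at most 0.694 kb from it. The outermost listed CpG of the distal ends lay a median of 9.27 kb inside the last assembled base (0.933 to 50.6 kb), and that of the centromere-near ends a median of 24.1 kb inside the first (0.03 to 110.1 kb). A satellite-like array was found at the start of chromosome 9. Its first 38 kb matched themselves best at a shift of 234 bp (71.2% of bases equal), the length of the unit of the mouse major satellite that surrounds the centromeres. Of 24.5 kb in the centromere-near ends that repeated at this shift with at least 70% of bases equal, 20.5 kb lay there. A unit with 6 listed cytosines, chr9:3032332-3032565 on the forward strand of GRCm38, is shown because it lies in this array, beside the centromere, and no other unit of it held more listed cytosines. Capitals mark CpGs of which at least 1 cytosine is listed.
Chromosome 9 satellite-like unit: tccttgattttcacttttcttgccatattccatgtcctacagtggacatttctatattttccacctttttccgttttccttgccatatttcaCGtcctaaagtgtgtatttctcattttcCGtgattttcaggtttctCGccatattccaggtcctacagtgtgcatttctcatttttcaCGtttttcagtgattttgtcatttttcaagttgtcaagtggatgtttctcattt
Along this unit the 6 cytosines had XO values of 85.2, 100, 88.9, 0, 85.2 and 81.8% from left to right. The XX values in the same order were 60.6, 79.7, 54.5, 1.56, 83.9 and 81.3%. The first 3 were lower in XX by at least 20 points, and the other 3 differed by less than 2 points. The fourth and the fifth value are the 2 strands of the same CpG, of which the forward strand was at or near 0% in both libraries.

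Stretches of 500 bp with at least 10 listed cytosines, at least 3 of them on each strand, were ranked by XX minus XO. There were 1326 in the distal and 983 in the centromere-near ends. Those at the extremes of each kind of end are shown next, in the same notation on the forward strand, as the sequences where the karyotypes differed most. They were chosen by that difference, which is therefore a description. The chr17:3084634-3084933 sequence lies in the centromere-near end of chromosome 17, in no annotated gene, 29972 bp from Scaf8.
Chromosome 17 centromere-near window: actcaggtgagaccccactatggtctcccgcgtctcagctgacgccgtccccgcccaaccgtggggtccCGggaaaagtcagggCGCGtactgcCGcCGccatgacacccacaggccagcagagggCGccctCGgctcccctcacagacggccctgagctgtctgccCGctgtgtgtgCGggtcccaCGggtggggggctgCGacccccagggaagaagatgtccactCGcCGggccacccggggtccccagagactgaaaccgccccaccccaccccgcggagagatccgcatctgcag
This G- and C-rich sequence (70.3% GC) had the second largest negative difference of the ranked stretches in the centromere-near ends. Its stretch averaged 4.88% in XX and 50.2% in XO cells over 13 cytosines. All 13 were at or below 7.69% in XX cells, and in XO cells they lay between 15.8 and 64.3%.

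In the distal ends the 2 most negative ranked stretches lay on chromosomes 6 and 11. The chr6:149362601-149362900 sequence is within the single exon of Gm15784, a processed pseudogene, that is, a copy of a spliced transcript put back into the genome. The chr11:120820022-120820321 sequence covers a coding exon, the intron next to it and part of another coding exon of Fasn, the gene of fatty acid synthase.
Chromosome 6 distal window: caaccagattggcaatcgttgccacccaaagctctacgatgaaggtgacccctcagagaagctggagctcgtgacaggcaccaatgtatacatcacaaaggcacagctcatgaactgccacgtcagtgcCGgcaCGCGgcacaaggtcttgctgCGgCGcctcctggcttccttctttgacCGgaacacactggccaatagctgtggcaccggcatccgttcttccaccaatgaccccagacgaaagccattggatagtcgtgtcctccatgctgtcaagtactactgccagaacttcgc
Chromosome 11 distal window: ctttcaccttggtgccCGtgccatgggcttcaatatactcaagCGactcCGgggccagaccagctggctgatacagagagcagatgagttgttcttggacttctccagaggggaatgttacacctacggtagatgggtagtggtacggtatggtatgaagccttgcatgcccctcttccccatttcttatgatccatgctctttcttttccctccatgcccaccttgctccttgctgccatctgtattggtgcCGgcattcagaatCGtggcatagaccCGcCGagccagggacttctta
The pseudogene stretch averaged 16.6% in XX and 64.5% in XO cells over 10 cytosines, and the ranges did not overlap (8.82 to 23.8% against 53.8 to 73.4%). The Fasn stretch averaged 17.7% and 64.6% over 10 cytosines, and here the ranges did overlap. Its forward strand differed by -65.7 points and its reverse strand by -18.8, so the size of the Fasn value depended on the strand read.

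The opposite difference was seen at chr12:118843048-118843347, in no gene and 2829 bp from Sp8, which encodes a zinc finger factor of limb and brain development.
Chromosome 12 distal window: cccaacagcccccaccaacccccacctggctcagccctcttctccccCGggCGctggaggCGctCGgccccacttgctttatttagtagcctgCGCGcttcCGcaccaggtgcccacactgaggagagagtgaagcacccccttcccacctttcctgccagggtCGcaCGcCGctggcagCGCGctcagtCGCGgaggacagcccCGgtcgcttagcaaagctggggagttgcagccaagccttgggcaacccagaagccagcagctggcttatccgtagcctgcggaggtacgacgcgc
Its 15 cytosines averaged 29.96% in XX and 3.14% in XO cells. They spanned 14.3 to 50% in XX and at most 5.88% in XO. The ranges did not overlap, and XX was the higher on both strands (46.7 points on the forward and 9.43 on the reverse strand).

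The largest negative difference of all ranked stretches in the ends was on chromosome 3, at chr3:3694001-3694500 in the centromere-near end, 35949 bp from Hnf4g, a nuclear receptor gene. It averaged 30.5% in XX and 83.3% in XO cells over 12 cytosines, of which 66.7% lay in sequence that the reference marks as repeat. The other stretches by this rule were all higher in XX. They lay at the gene start of Myg1 on chromosome 15 (44.7% in XX, 11.6% in XO) and near those of Zfp524 on chromosome 7 (29.1% and 0%) and Brms1 on chromosome 19 (52.8% and 23.7%). All overlapped untranslated exons, and the Myg1 stretch also overlapped its coding sequence and an exon of Pfdn5. The middle of the Zfp524 stretch lay 835 bp from the gene start. At Zfp524 the difference was 48.1 points on the forward and 4.57 on the reverse strand. Among all 38381 autosomal stretches counted, which include some in the ends that were not ranked, XX was lower by 20 points or more at 11.5%. It was higher by as much at 0.360%. Beside these shares, 132 of 1361 stretches in the distal ends (9.70%) and 101 of 1009 in the centromere-near ends (10.01%) were lower by that much, and 9 (0.661%) and 4 (0.396%) were higher. The share lower was thus slightly under that of all stretches in both kinds of end, and the share higher was above it in the distal ends, on 9 stretches.

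Over all CpGs of the ends, XX cells had less methylation than XO cells at every end. The distal ends averaged 16.4% in XX and 23.5% in XO, a difference of -7.16 percentage points. In the centromere-near ends it was 17.7% in XX and 25.1% in XO, a difference of -7.35. In the rest it was 17.6% and 25.8%, a difference of -8.16. XX lay below XO in 19 of 19 distal and 19 of 19 centromere-near ends, and the methylation left in XX was 69.55% of that in XO in the distal ends, 70.7% in the centromere-near ends and 68.3% in the rest. Of all autosomal CpG cytosines, XX was lower by 20 points or more at 22.4% and higher by as much at 3.69%, and the corresponding shares were 20.3% and 3.79% in the distal ends and 20.7% and 3.82% in the centromere-near ends. Single cytosines were read with limited precision. At CpGs of the distal ends read on both strands, the median size of the difference between the strands was 3.03 points in XX and 4.15 in XO. It was 3.03 and 4.35 in the centromere-near ends. The SD of that difference was larger, at 11.73 points in XX and 13.95 in XO in the distal ends. In the centromere-near ends the SD was 11.75 and 13.69 points. Between the strands, XX minus XO had a Pearson's r of only 0.371 in the distal and 0.387 in the centromere-near ends. Read depth is unknown, as the table holds percentages only.

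Because RRBS reads many cytosines of CpG islands, the ends were also compared at sparse CpGs, those with fewer than 5 other listed cytosines within 100 bp. These made up 24.7% of the cytosines in the distal ends, 25.8% in the centromere-near ends and 29.0% in the rest. Sparse CpGs of the distal ends averaged 34.03% in XX and 50.5% in XO (-16.5 points, 14470 cytosines). Those of the centromere-near ends averaged 36.5% and 52.6% (-16.0 points, 10880 cytosines), and those of the rest 34.7% and 51.5% (-16.8 points). Among sparse autosomal cytosines XX was lower by 20 points or more at 44.0% and higher by as much at 5.11%, and the share lower was 43.4% in the distal and 42.8% in the centromere-near ends. Crowded CpGs, with 15 or more listed neighbours, were little methylated in all 3 compartments. They averaged 5.85% in XX and 7.18% in XO in the distal ends, 5.76% and 7.18% in the centromere-near ends and 5.35% and 6.51% in the rest. Pooled over cytosines, both kinds of end were thus within 2 points of the rest in each library at sparse CpGs.

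**Figure D1:**
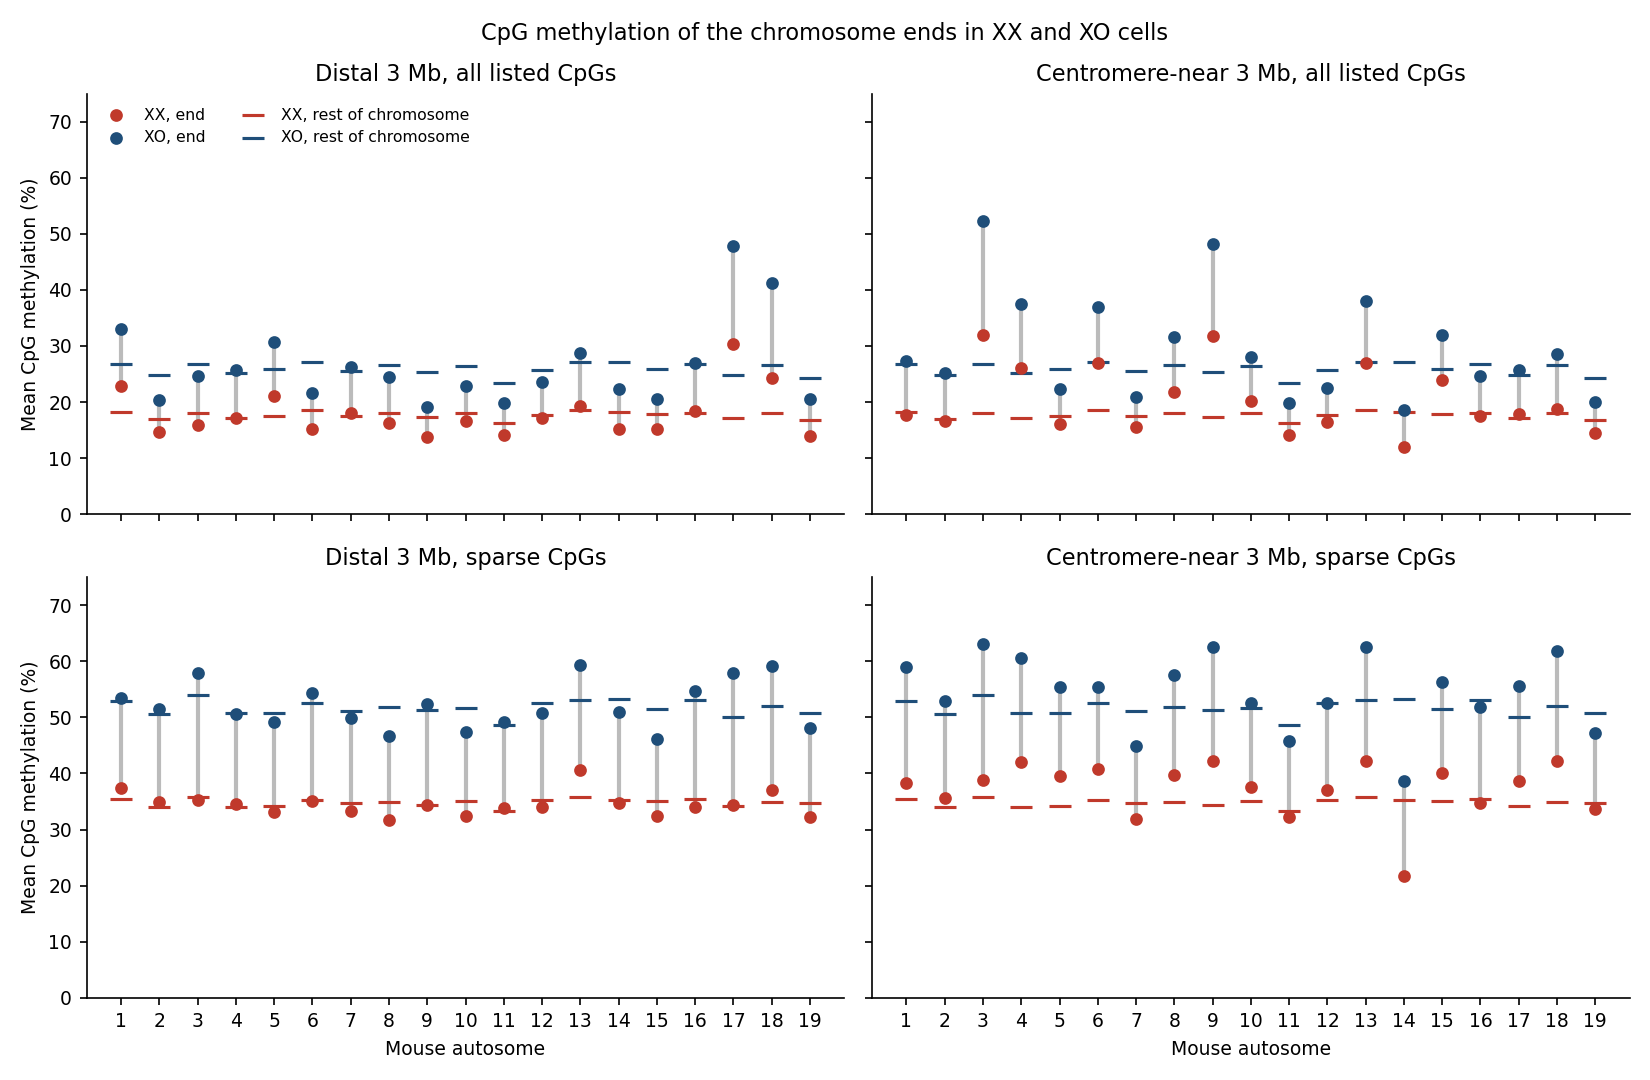
Mean CpG methylation (percent, vertical axis) of the distal (left) and centromere-near (right) 3 Mb of each autosome (horizontal axis), at all listed CpGs (top) and at sparse CpGs (bottom). Red and blue points are the XX and XO library at the end, joined by a grey line, and horizontal marks are the rest of the same chromosome. XX lies below XO at each of the 38 ends, and the distal ends of chromosomes 17 and 18 and the centromere-near ends of 3 and 9 stand highest in XO among all listed CpGs.

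Single ends varied far more than whole chromosomes. At all listed CpGs the rest of each chromosome differed between karyotypes by -8.93 to -7.09 points (SD over the 19 autosomes 0.50). The distal ends ranged from -17.5 points on chromosome 17 to -5.35 on chromosome 15 (SD 3.43), and the centromere-near ends from -20.2 on chromosome 3 to -5.29 on chromosome 7 (SD 3.79). These stretches are much shorter than the rest, and fewer cytosines were averaged. When each end was set against the rest of its own chromosome, the difference was a median of 0.32 points less negative at the distal ends (8 below 0 and 11 above) and 0.29 points more negative at the centromere-near ends (10 below and 9 above). At sparse CpGs the medians were 0.03 and 0.07 points, with 9 chromosomes below 0 and 10 above for each kind of end. When CpGs were sorted into those with fewer than 5, 5 to 14, and 15 or more listed neighbours and averaged with the class shares of the rest, the medians were 0.05 and 0.35 points. Against the rest of its chromosome, neither kind of end thus lay to one side in the size of the difference.

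Levels, in contrast to differences, were often above the chromosome in the centromere-near ends. At sparse CpGs their XO methylation was a median of 4.63 points above the rest of the chromosome, higher on 14 of 19 chromosomes, from -14.48 points on chromosome 14 to 11.09 on chromosome 9. Their XX methylation was a median of 3.09 points above, also on 14 of 19. The distal ends had medians of 0.46 points in XO (10 of 19 above) and -0.51 in XX (8 of 19 above). XX as a percentage of XO at sparse CpGs exceeded that of the rest by a median of 1.76 percentage points at the centromere-near ends (15 of 19 above) and by 0.03 at the distal ends (10 of 19 above). The value for the centromere-near ends was smaller in several alternatives. It was 0.84 points on the forward strand alone (7 of 19 below 0), 1.10 at a width of 5 Mb (8 below), 0.98 at 10 Mb (5 below) and 1.05 with cytosines within 1 kb of a gene start left out (5 below). Sparse CpGs of the centromere-near ends lay more often in repeats, 26.2% against 17.01% in the distal ends and 18.5% in the rest. Inside repeats they averaged 40.8% in XX and 60.4% in XO, against 37.4% and 57.1% in the rest. Outside repeats the values, also pooled over cytosines, were 35.0% and 49.8%, against 34.1% and 50.3%. Taken per chromosome, as an alternative chosen after seeing the data, the XO level of the centromere-near ends was a median of 5.18 points above the rest inside repeats (14 of 19 above) and 1.89 points above outside them (13 of 19 above). The mean over chromosomes outside repeats was 0.39 points, with a range from -26.1 to 7.98, so the excess there was small and uneven. The repeats of the distal ends averaged 36.8% and 56.9%, close to the rest. With repeats left out, XX as a percentage of XO was still above the rest on 15 of 19 chromosomes at the centromere-near ends, by a median of 2.12 points.

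Sorting the sparse CpGs by their XO value gave a similar picture. Among those at 80 to 100% in XO, XX cells had 58.4% in the centromere-near ends, 56.1% in the distal ends and 56.5% in the rest, for XO means of 90.0, 89.8 and 89.7%. At 40 to 60% in XO, XX cells had 34.3, 33.1 and 33.0%. XX as a percentage of XO was larger in the centromere-near ends than in the rest in each of 5 such classes. In the classes from 20% upward it was 1.91 to 2.61 points over the rest. In the lowest class it was 9.69 points over. There XX cells had 12.5% in the centromere-near ends and 12.4% in the rest, for XO means of 8.24 and 8.74%. Sorting uses the XO value itself, so XX exceeded XO in the lowest class of every compartment.

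Interior stretches of the same length gave the scale for single ends. In 754 interior stretches of 3 Mb, XX minus XO had a median of -8.88 points at all listed CpGs, and 90% lay between -19.8 and -5.61. At sparse CpGs the median was -17.8 points and the same range was -24.2 to -13.8. The difference was less negative than at most interior stretches of the same chromosome at 14 of 19 distal and 10 of 19 centromere-near ends at all listed CpGs, and at 12 and 13 of 19 at sparse CpGs. The distal ends of chromosomes 9 and 15 and the centromere-near end of chromosome 19 differed less between karyotypes than every interior stretch of their own chromosome, all by a narrow margin. The distal end of chromosome 9 averaged 13.7% in XX and 19.1% in XO, that of chromosome 15 15.1% and 20.5%, and the centromere-near end of chromosome 19 14.6% and 19.95%. At sparse CpGs 0 of 38 ends lay outside the range of its chromosome in the difference. In XX as a percentage of XO some did. The centromere-near ends of chromosomes 6 and 10 lay above all interior stretches of their chromosome in that measure. The centromere-near end of chromosome 14 and the distal end of chromosome 17 lay below all of theirs. In XO level at sparse CpGs, the centromere-near ends of chromosomes 9 and 18 lay above all their interior stretches and the distal end of chromosome 15 and the centromere-near end of chromosome 14 below all of theirs.

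**Figure D2:**
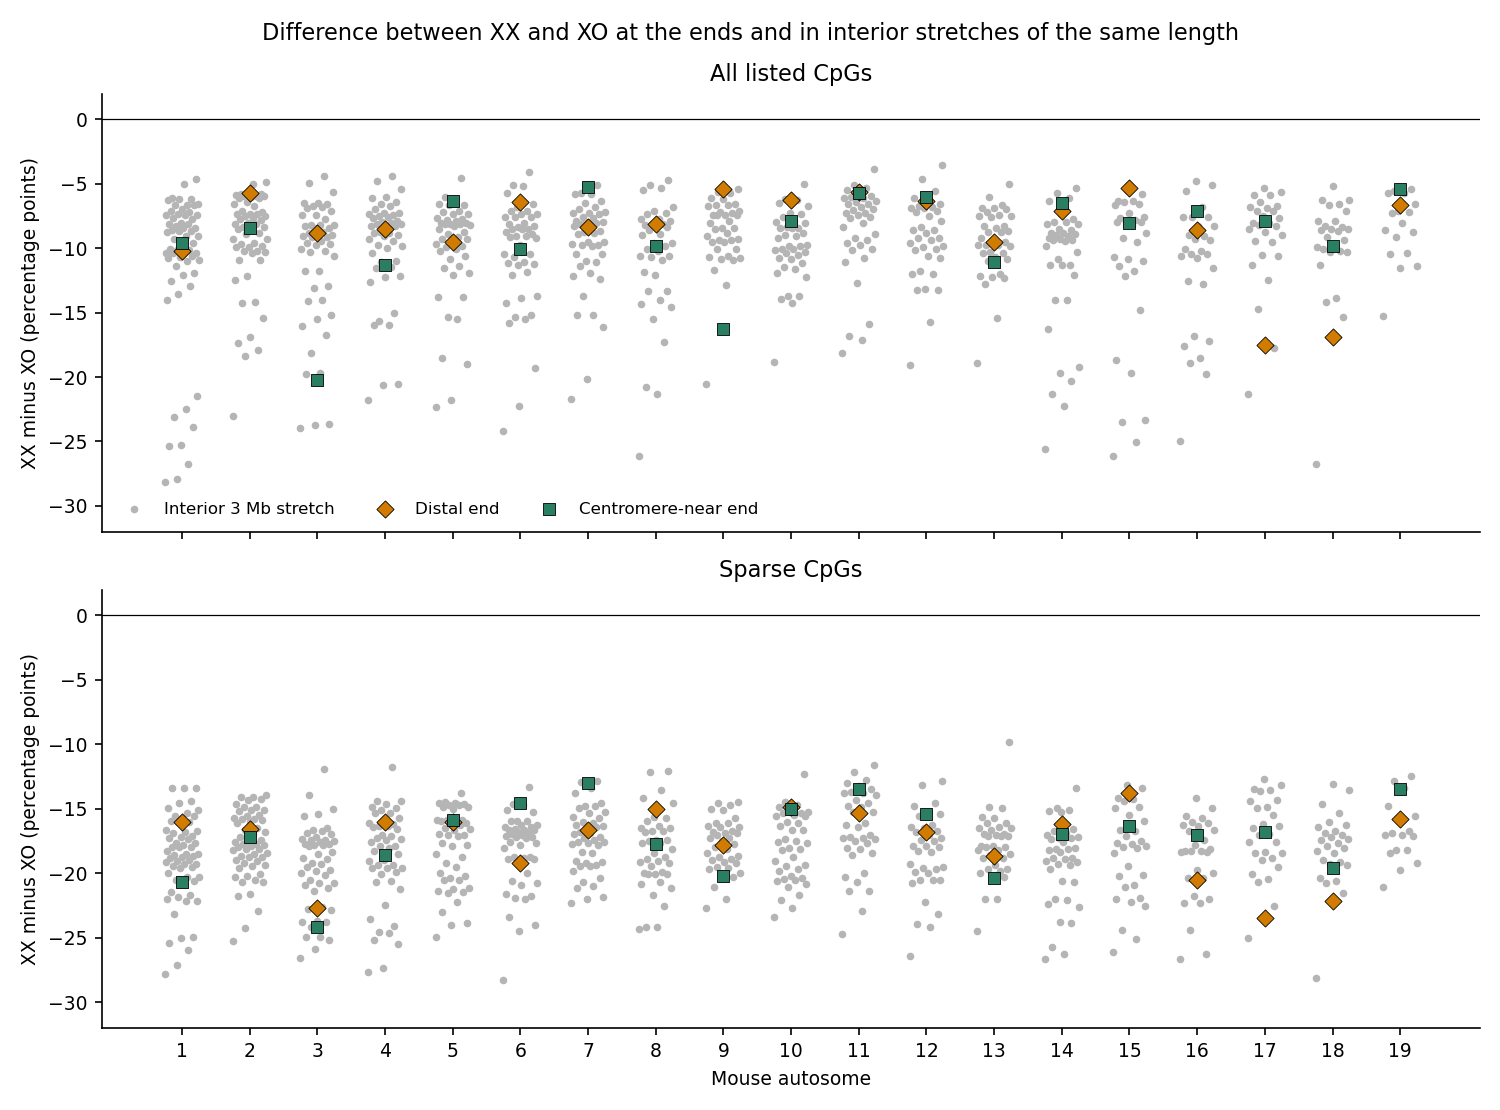
XX minus XO in percentage points (vertical axis) for each autosome (horizontal axis), at all listed CpGs (top) and at sparse CpGs (bottom). Grey points are the interior 3 Mb stretches, diamonds the distal and squares the centromere-near ends. All points lie below 0, and at sparse CpGs each end falls within the spread of the interior stretches of its chromosome.

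The ends with the highest XO means at all listed CpGs had few listed cytosines, and those on chromosomes 17, 18 and 3 held few gene starts. The distal end of chromosome 17 averaged 30.3% in XX and 47.9% in XO over 422 cytosines and held 2 protein-coding gene starts. The distal end of chromosome 18 averaged 24.3% and 41.2% over 448 cytosines and held 7. The centromere-near end of chromosome 3, with 4, averaged 32.0% and 52.2% over 553 cytosines, and that of chromosome 9, with 19, averaged 31.8% and 48.1% over 798. In these 4 ends 48.0 to 55.5% of the cytosines lay in repeats, against 7.79% in all distal and 12.6% in all centromere-near ends, and 42.4 to 49.6% were sparse. At all listed CpGs each lay within the range of interior stretches of its chromosome in XO level and in difference. At sparse CpGs the distal end of chromosome 17 remained the most negative of its kind, with 34.4% in XX and 57.9% in XO (-23.5 points), and the centromere-near end of chromosome 3 the most negative of the other, with 38.9% and 63.1% (-24.2 points). Both were more negative on each strand read alone, at -22.1 and -25.1 points for chromosome 17 and -23.7 and -24.6 for chromosome 3, than the -16.9 points that was the median of the rest of the chromosomes.

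Across the 19 distal ends, the percentage of sparse CpGs went with XO methylation (Pearson's r 0.921, Spearman's rho 0.935) and with XX minus XO (r -0.903, rho -0.851). Across the 19 centromere-near ends the values were 0.759 and 0.653 for XO and -0.762 and -0.753 for the difference. These are descriptions over ends that share 2 libraries, and the percentage of sparse CpGs varies with base composition. Part of the relation is built in, because the means at all listed CpGs include the sparse ones. In the distal ends sparse CpGs averaged 50.5% in XO and crowded CpGs 7.18%. The centromere-near end of chromosome 14 was the clearest exception. It had 38.8% sparse CpGs but averaged only 12.1% in XX and 18.6% in XO over 281 cytosines, and its 109 sparse CpGs averaged 21.8% and 38.7%. Of its 65 protein-coding gene starts 62 belonged to gene models with a Gm number, 61.8% of its bases were marked as repeat, and 0.729% of its CpG cytosines were listed, against 4.48% in all centromere-near ends. Whether reads of near-identical gene copies were lost or misplaced there was not tested. XX was 56.2% of XO at its sparse CpGs, the lowest of the 38 ends.

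**Figure D3:**
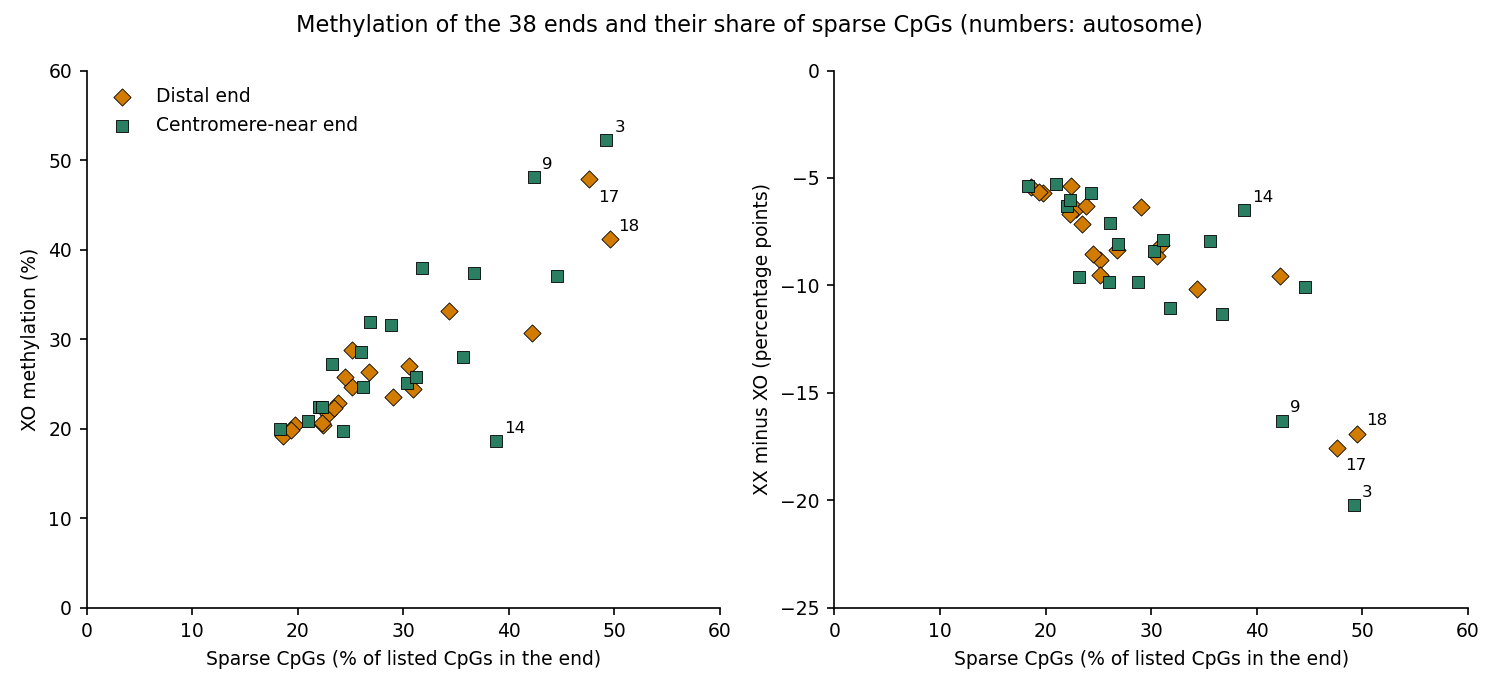
XO methylation in percent (left) and XX minus XO in percentage points (right) of the 38 ends, at all listed CpGs, against the percentage of their listed CpGs that are sparse. Diamonds are distal and squares centromere-near ends, and numbers name the autosome of 5 ends. Ends with more sparse CpGs stand higher in XO and lower in the difference, with the centromere-near end of chromosome 14 (38.8% sparse, 18.6% in XO) apart.

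The gene-dense ends showed the opposite combination. The centromere-near end of chromosome 19, with 127 protein-coding gene starts, was listed at 2874 cytosines per Mb and had 18.4% sparse CpGs. The distal end of chromosome 11 averaged 14.2% in XX and 19.9% in XO over 8653 cytosines, and the distal end of chromosome 15, which holds the Hoxc homeobox cluster and keratin genes, was listed at 2044 cytosines per Mb. As a group, the distal ends held 13.2 coding gene starts per Mb, the centromere-near ends 11.4 and the rest 8.51. They held 1036, 742 and 726 listed cytosines per Mb and had 43.3, 42.1 and 41.9% GC. The centromere-near ends were the most repeated, with 39.7% of bases marked as repeat against 32.0% in the distal ends and 33.4% in the rest.

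Within the ends, methylation varied with the distance from the outermost CpG. At sparse CpGs the outermost 0.5 Mb of the distal ends averaged 37.8% in XX and 55.9% in XO, whereas the remainder of those ends averaged 33.6% and 49.8%. The outer stretch was the higher in XO on 13 of 19 chromosomes and in XX on 16 of 19. It also held more sparse CpGs in repeats, 31.8% against 15.2%. In the centromere-near ends the outermost 0.5 Mb averaged 39.3% in XX and 55.2% in XO, against 36.0% and 52.0% further in, and was the higher in XO on 12 of 19 chromosomes. The 0.5 Mb width was chosen after the profile had been seen. XX minus XO was -18.0 points in the outer and -16.3 in the inner part of the distal ends, and -15.9 and -16.0 in the centromere-near ends. At the 3 Mb boundary of the rule no step was seen. Sparse CpGs from 2.5 to 3 Mb of the distal ends averaged 33.97% in XX and 50.8% in XO, and those from 3 to 3.5 Mb 34.6% and 51.8%. On the centromere-near side the same bins averaged 36.1% and 52.7%, and 35.0% and 51.7%. The XO level of the outermost bin was the highest of the first 10 Mb on the distal side, and on the centromere-near side the highest was 58.8%, at 4.5 to 5 Mb.

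**Figure D4:**
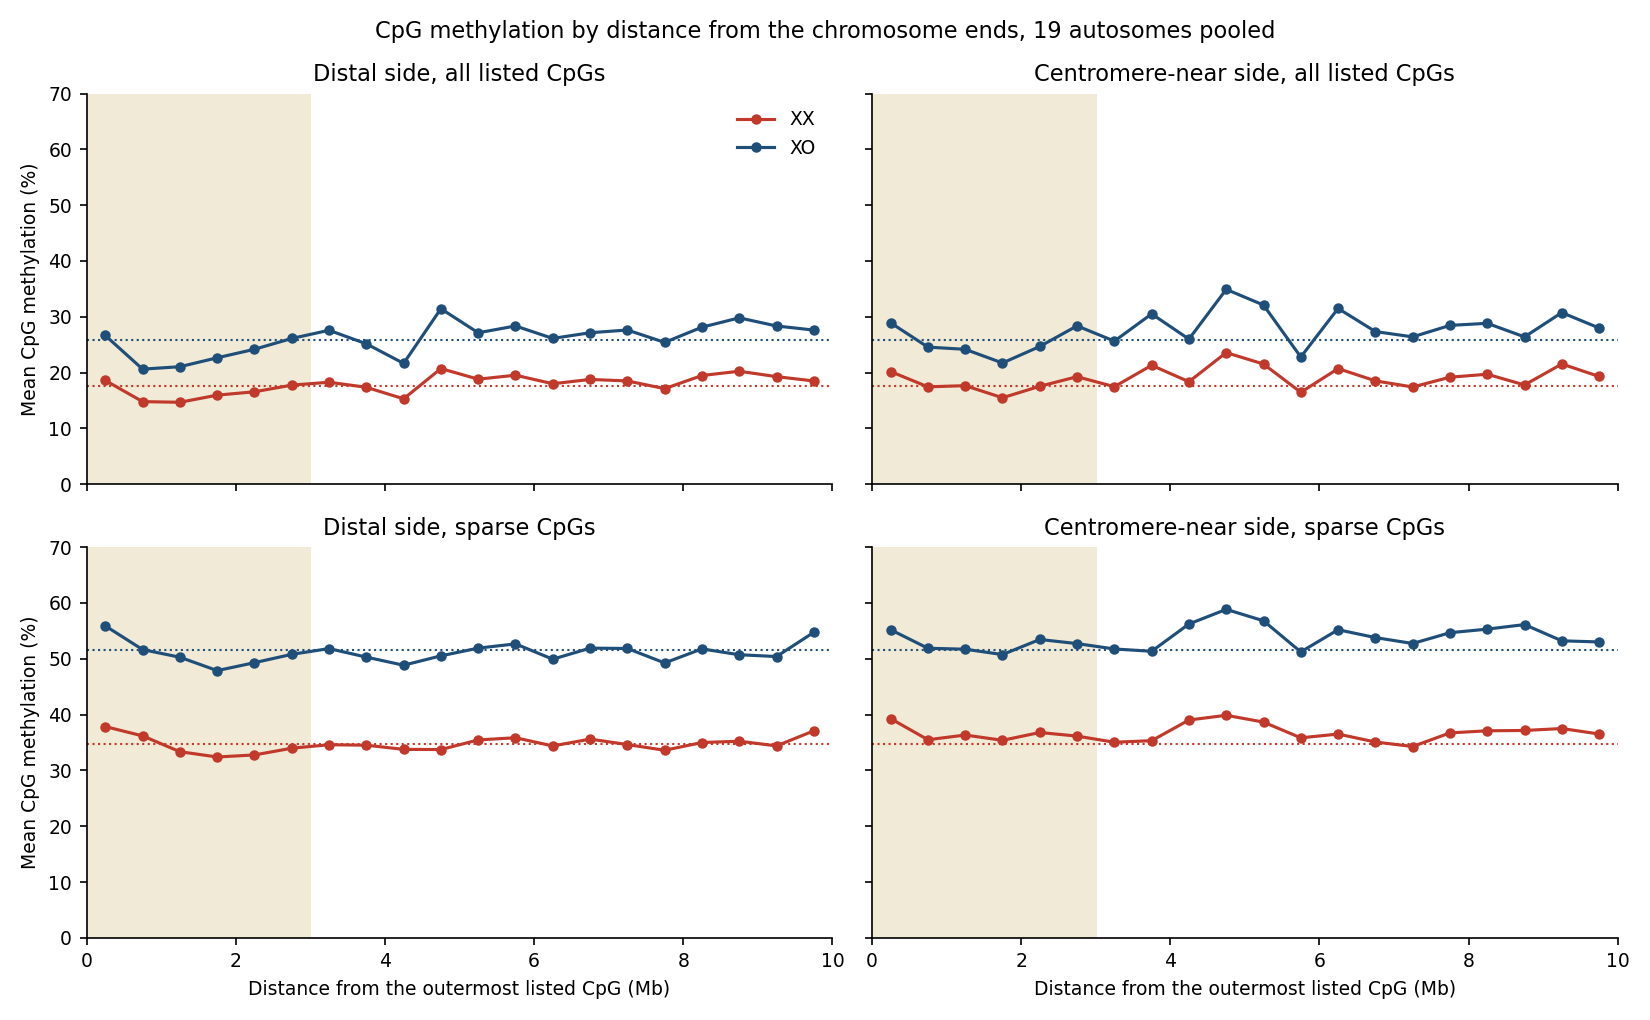
Mean CpG methylation (percent, vertical axis) in bins of 0.5 Mb by distance from the outermost listed CpG (Mb, horizontal axis), pooled over 19 autosomes, at all listed CpGs (top) and sparse CpGs (bottom). Red is XX and blue XO, the shaded stretch is the 3 Mb end, and dotted lines are the means of the rest. The lines run in parallel, and at sparse CpGs the outermost distal bin stands at 37.8% in XX and 55.9% in XO.

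The satellite-like start of chromosome 9 was well methylated in both libraries. Its 39 cytosines averaged 54.4% in XX and 65.1% in XO, and XX was 83.4% of XO, against 66.1% for the whole end. XX was lower at 27, higher at 9 and equal at 3 cytosines, and 12 (30.8%) were lower by at least 20 points. Beside this, 22.4% of all autosomal cytosines and 44.0% of the sparse ones were lower by that much. Of the 39 cytosines 33 were sparse, so the share in the array was not raised against CpGs of that kind. The difference in the array was -2.49 points on the forward strand (14 cytosines) and -15.4 on the reverse strand (25 cytosines). At 6 of the 39 cytosines both libraries were at or below 10%, and without them the means were 63.9% and 76.8%. Only 2.54% of the CpG cytosines in this stretch were listed, and whether reads of satellite copies outside the assembly were placed there was not tested. Elsewhere in the autosomes, outside the ends, 177 kb repeated at the same shift, and 28 listed cytosines there averaged 50.2% in XX and 75.4% in XO, a difference of -25.3 points. In the parts of the chromosome 9 array picked by the same rule, 21 cytosines averaged 56.9% and 65.0% (-8.13 points). Both sets are small, and 20 of the 28 cytosines lay on chromosome 3. The rule asks only for a match at this shift, which repeats of a shorter unit can also give. Whether the 177 kb is satellite DNA was not tested, so the 2 sets may differ in kind. Without the array the chromosome 9 end averaged 30.6% in XX and 47.2% in XO, a difference of -16.6 points in place of -16.3.

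Near the telomere-type repeats, 70 cytosines of the distal ends within 1 kb of such a place averaged 23.3% in XX and 32.4% in XO. In the rest, 239 such cytosines averaged 26.3% and 39.95%. Of the 70 cytosines, 58 came from chromosomes 2 and 4, so few distal ends stand behind these means.

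Gene starts in the ends were mostly little methylated in both libraries. Promoters were taken as 1 kb either side of the start of a protein-coding gene (GENCODE M21), with at least 10 listed cytosines. Among 429 such promoters in the distal ends the medians were 7.32% (XX) and 8.77% (XO), with a median difference of -1.16 points. Among 384 in the centromere-near ends it was 7.73% and 8.22%, with -1.21, and in the 11233 of the rest the median difference was -1.15. Of all 12046 autosomal promoters, XX was lower by 20 points or more at 1.33% and higher by as much at 0.158%. In the distal ends 9 (2.10%) were lower by that much and 1 higher, and in the centromere-near ends 6 (1.56%) and 1.

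Promoters with at least 3 cytosines on each strand were ranked by their difference, and the 5 at each extreme are described. The most negative of the distal ends was Rnf223, a RING finger gene with its start at position 156130513 of chromosome 4, which averaged 20.05% in XX and 59.5% in XO over 17 cytosines. Tas1r3, a sweet and umami taste receptor subunit at 155863362 of the same chromosome, averaged 37.7% and 66.6% over 13. Tnni2, the fast skeletal muscle troponin I at 142441808 of chromosome 7, averaged 27.3% and 54.1% over 13. With these 3, a total of 9 of the 429 distal promoters (2.10%) were above 50% in XO, against 4 of the 384 centromere-near promoters (1.04%) and 1.02% of all autosomal promoters. Ccdc172 on chromosome 19 averaged 4.28% and 30.3%, and Lime1, a lymphocyte adaptor gene on chromosome 2, 27.9% and 53.9%. All 5 were lower in XX on each strand.

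The distal promoters with the most positive differences included Myg1 at 102331709 of chromosome 15, with 41.5% in XX and 13.3% in XO over 33 cytosines. Its difference was 21.0 points on the forward and 32.2 on the reverse strand. Hoxc6, a homeobox gene at 102998257 of the same chromosome, averaged 41.7% and 27.2% over 16 cytosines, and Krt4, a keratin of lining epithelia, 35.2% and 22.4% over 15. Smim1, a small membrane protein gene on chromosome 4, averaged 23.2% and 7.399%, and Tbcd, a tubulin folding cofactor gene on chromosome 11, 17.2% and 3.08%. XX was the higher on both strands at each of the 5.

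In the centromere-near ends the most negative promoter was that of Mus81, a DNA repair endonuclease gene at 5488402 of chromosome 19, with 6.63% in XX and 38.9% in XO over 17 cytosines. Its forward strand differed by -10.97 points and its reverse strand by -38.8. Ccdc152 on chromosome 15 averaged 24.9% and 51.7%. Smtn, the smoothelin gene of smooth muscle, and Pla2g3, a secreted phospholipase gene, both on chromosome 11, averaged 3.62% and 29.8%, and 9.83% and 31.4%. Cst6, a cystatin gene on chromosome 19, averaged 14.9% and 37.7%, with -3.04 points on the forward and -44.2 on the reverse strand. All 5 were lower in XX on both strands, though by unequal amounts. The most positive were Nipsnap1 (21.0% in XX, 0.192% in XO), Shcbp1 (17.1% and 0.417%), Plcxd3 (36.4% and 20.7%) and the pair Pfn4 and Fam228b, whose promoters share the same 14 cytosines (31.1% and 18.2%). Plcxd3 had a negative difference on the forward strand (-6.55 points, 3 cytosines), so its direction was not shared by the strands.

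The imprinted genes in the ends lie mainly in the Kcnq1 and H19 domain at the distal end of chromosome 7 and in the Peg10 domain at the start of chromosome 6. Imprinted genes are expressed from only the maternal or only the paternal copy, under control regions methylated on a single parental copy. Of 25 listed genes with a start in an end, 19 had at least 3 cytosines, of which 13 were lower and 6 higher in XX, with a median of -1.10 points, against -7.50 for the 32 in the rest. Of all 13729 autosomal protein-coding starts with at least 3 cytosines, 65.8% were lower in XX, with a median of -1.38 points, so the share among the imprinted genes of the ends was near that of all starts. The start of Kcnq1ot1, the noncoding RNA of its domain, averaged 23.6% in XX and 64.3% in XO over 7 cytosines, all on the reverse strand. The start of Th averaged 49.9% and 78.03% over 6, and that of H19 16.0% and 32.7% over 9. Peg10 and Sgce, which share 14 cytosines, averaged 15.4% and 30.8%, and both are counted among the 13 that were lower. Cdkn1c, a cell cycle inhibitor, averaged 6.799% in XX and 1.19% in XO over 44 cytosines, and Phlda2 38.5% and 39.3% over 32. Kcnq1ot1 and Th were the 2 members at least 20 points lower in XX, and the other 17 differed by -16.7 to 11 points.

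Of 21 homeobox and other developmental regulator genes in the ends 19 had at least 3 cytosines, with 14 lower and 5 higher in XX and a median of -3.08 points (43 in the rest, -1.05), beside the 65.8% and -1.38 points of all starts. Sox18, a factor of blood and lymph vessels, averaged 7.68% in XX and 21.7% in XO, a difference of -14.0 points that came from the forward strand (-19.8, and 0 on the reverse). The Hoxc genes of distal chromosome 15 differed among themselves. Hoxc8 averaged 0.944% and 3.22%, Hoxc13 4.92% and 10.2%, and Hoxc12 41.4% and 36.6%, the last with opposite signs on the strands (-18.9 and 30.1 points). Together with Hoxc6, Hoxc12 was the most methylated of the cluster in both libraries.

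The remaining lists had few members in the ends. Dnmt3a, a de novo DNA methyltransferase gene at the start of chromosome 12, averaged 2.23% in XX and 1.28% in XO over 103 cytosines. Lif, the cytokine that sustains mouse embryonic stem cells, averaged 10.97% and 9.55% over 9. The starts of Mir290a and Mir291a, microRNAs of such cells, averaged 13.4% and 14.7% over 28, and 13.2% and 17.05% over 23. The stretches averaged for these microRNAs overlap, so their values are not independent. Rtel1, a helicase gene of telomere maintenance on distal chromosome 2, averaged 20.4% and 9.94% over 26, with -2.52 points on the forward and 23.5 on the reverse strand. Tcstv1 and Tcstv3, genes of the early embryo on distal chromosome 13, had 0 listed cytosines. Nlrp4c, a germ cell gene, averaged 22.8% and 46.5% over 3. Of 9 genes at the chemokine receptor locus on distal chromosome 9 only Ccr9 (33.0% and 33.2% over 36) and its neighbour Fyco1 (16.1% and 16.7% over 47) had at least 3 cytosines. These promoters gave no common direction.

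By the same rule the ends of chromosome X held 485 cytosines. The distal end averaged 15.2% in XX and 37.3% in XO over 363 cytosines, of which 100 lay in or within 2 kb of Asmt, the melatonin synthesis gene of the pseudoautosomal region (10.96% and 65.2%). Without them the means were 16.8% and 26.7%. The centromere-near end averaged 29.2% and 46.5% over 122 cytosines, and the rest of the chromosome 18.7% and 30.5%.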

How the data were processed

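The authors deposited 1 table of methylation per CpG cytosine, in percent of its reads, with a column for each karyotype. Per the submitters' processing notes, reads were handled with bcl2fastq and Bismark and placed on mm10, and versions and any coverage minimum are not given in the sources used here. DNA had been extracted with a Zymo Quick DNA kit and libraries made with a NuGEN Ovation Methylseq kit. Coverage is unknown, so a value of 0 or 100% can rest on few reads, and no interval was computed. The table had 1782730 cytosines with 0 missing values and 0 unused sample columns. The 62 cytosines of chromosome Y were not used, and 51 positions lay on no CpG of GRCm38.

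Ends, sparse CpGs (fewer than 5 other listed cytosines within 100 bp), interior stretches of 3 Mb with at least 100 cytosines, promoters and 500 bp stretches were averaged over cytosines. Soft-masked bases of the reference were taken as repeats, with all classes together. Genes were those of GENCODE M21. The genes named were the 5 promoters with the most negative and the 5 with the most positive difference in each kind of end, and members of 7 lists (DNA methylation machinery, imprinted, developmental regulator, naive pluripotency, germ cell, telomere and chemokine receptor genes) with at least 3 cytosines. Sequences come from the 2 stretches at each extreme in each kind of end, with chromosome 18 left out. The ends and lists were chosen with earlier results of these data known. Python 3.11.15, numpy 2.4.6, pandas 2.3.3 and matplotlib 3.10.9 were used, and the code was tested on simulated data. Alternatives were other widths, cutoffs, thresholds and summaries, each strand, distance from gene starts and each chromosome left out, and, added after the data had been seen, repeats left out.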

Additional observations from a re-analysis of the deposited data

How the results depend on the processing

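No paired analysis was possible because each karyotype had 1 library and no test was made. With no replicates, the yardstick for a difference was the SD over the 19 autosomes and that for a share a change by 1.5 times. XX stayed below XO in all 120 alternatives for the ends. Of 244 alternatives 233 stayed within these limits and 11 moved beyond them. In 152 of the 244 a single autosome was left out, and 0 of these 152 moved. Leaving out 1 of 19 autosomes can hardly shift a pooled mean or a median by the SD over autosomes. These 152 therefore say little about stability. A reversal was counted only where the reported value exceeded its SD, and 0 were found. For end minus rest, in the difference and in XX as a percentage of XO, the reported values lay within their SD. No reversal could be counted there, and changes of sign in the difference were counted as within the limits. At all listed CpGs, 10 kb windows that each counted once gave -14.9 points (distal) and -14.8 (centromere-near), and leaving out cytosines within 1 kb of a gene start gave -12.5 and -13.4. Medians over cytosines gave -3.10 points for the distal and -3.59 for the centromere-near ends at all listed CpGs, and at sparse CpGs -21.1 for the distal and -20.5 for the centromere-near ends. With thresholds of 10 and 30 points, 32.0% and 11.96% of cytosines were lower in XX in the distal ends and 32.6% and 12.3% in the centromere-near ends. At the main threshold of 20 points the shares were 20.3% and 20.7%, beside 22.4% of all autosomal cytosines. Of all autosomal cytosines, 34.6% were lower in XX at the threshold of 10 points and 13.5% at that of 30 points. The shares in both kinds of end were thus slightly under those of all autosomal cytosines at each threshold. Leaving out 1 autosome gave -7.42 to -6.94 points for the distal and -7.85 to -7.17 for the centromere-near ends at all listed CpGs, -16.8 to -16.3 and -16.5 to -15.8 at sparse CpGs, and, for the end minus the rest, 0.17 to 0.56 and -0.51 to -0.13. The sign of end minus rest was not stable. It was -0.47 at the distal ends at a width of 10 Mb, and at the centromere-near ends 0.06 on the reverse strand and 1.18 with repeats left out, an alternative chosen after seeing the data. The unknown depth limits what single cytosines and small stretches can show.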
